A study of Mus musculus with 6 samples.

Results

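To follow the machinery that copies DNA in the iron-deficient kidney, the genes of DNA replication and nucleotide synthesis were examined in RNA-seq counts of pups made iron deficient through their diet (FeD) and of their controls. The group held 47 genes chosen by function, with earlier results of these data known, and matched by symbol. All 47 were found among the 24422 gene symbols of the deposited counts, and all 47 passed the filter on low counts, which left 15145 genes to test. The whole kidney was sequenced from 3 pups of each diet. All 6 pups were wild type C57BL/6 mice labelled as postnatal day 15, and the labels name no other allele or treatment. Control dams ate a diet with 220 ppm iron, FeD dams ate a synthetic diet with about 2 to 6 ppm iron, and both diets ran from before mating to the day of harvest. The dams were 8 weeks old when divided by diet. For the time on diet before mating the labels give 1 month, whereas the study's methods give a shorter time and a range of harvest days that ends at the labelled day. The diet was given to the dam and so to the whole pup, not to the kidney alone. The number of litters is not given, so litter and diet cannot be told apart.

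Replication begins when the origin recognition complex, with Cdc6 and Cdt1, loads rings of the MCM helicase onto origins of replication. Cdc45, Mcm10 and the GINS complex then start the helicase, primase and DNA polymerase alpha lay down primers, and polymerases delta and epsilon extend them with the sliding clamp PCNA. Deoxynucleotides come from ribonucleotide reductase, an enzyme whose small subunit carries iron, and from the thymidylate pathway. In the mouse kidney nephrons are still lengthening after birth, and cells of the growing tubules divide.

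Total counts were 16189041 to 20374327 in the control kidneys and 13732173 to 20853293 in the FeD kidneys. Values are given as normalized counts, which are counts scaled to a common effective library size by the trimmed mean of M-values (TMM). A floor of 3 counts corresponded to 2.59 to 3.89 normalized counts in these libraries, and no gene of the 47 was at 0 in any kidney. FeD kidney 3 stood apart within its group, being the lowest of the 3 FeD kidneys for 30 of the 47 genes. Relative to the control mean, the median log2 value of the genes was -0.18 in FeD kidney 1, -0.22 in FeD kidney 2 and -0.40 in FeD kidney 3. The defining markers of tubules and podocytes (Lrp2, Umod, Slc12a1, Slc12a3, Aqp2 and Nphs1) were detected in every library, with a summed level of 159797 to 174464 normalized counts in control kidneys and 121356 to 187320 in FeD kidneys.

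Transcripts of some replication genes were lower in FeD kidneys, in 6 of the 8 roles into which the group was divided, while most of the 47 genes did not pass the test. In a quasi-likelihood fit with edgeR, adjusted over all tested genes by Benjamini-Hochberg, 6 of the 47 genes were lower by at least 2-fold at an adjusted P under 0.05 (12.8%), against 5.69% of all tested genes. These were the checkpoint gene Clspn, the licensing factor Cdc6, the thymidine kinase Tk1, the methylation maintenance factor Uhrf1, the transcription factor E2f2 and the ribonucleotide reductase subunit Rrm2. Without a fold threshold 18 genes fell (38.3%, against 23.3% of all tested genes), and 3 genes rose (6.38%, against 22.4% of all tested genes). The 3 genes that rose were Rrm2b, Chaf1b and Orc6. The other 26 did not pass the test.

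No gene of the 47 rose by at least 2-fold, a call that 4.34% of all tested genes reached in edgeR. Since the largest log2 fold change of the 47 was 0.54, this count would be 0 at any P, adjusted or not. It was also 0 by DESeq2, which called 4.18% of all its tested genes. The median log2 fold change of the 47 genes was -0.28, beside -0.0018 for all tested genes, and their values ran from -1.78 to 0.54. Below, a log2 fold change is written ± its standard error. Of the 47 genes, 38 had a log2 fold change below 0 and 9 above 0. Every FeD kidney was below every control kidney for 24 genes (51.1%, against 29.7% of all tested genes) and above every control kidney for 4 genes (8.51%, against 28.3%). The groups overlapped for the remaining 19.

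Without FeD kidney 3, 4 of the 47 genes in place of 6 were lower by at least 2-fold, against 5.87% of all genes tested in that fit. Lower at any fold were 16 in place of 18, against 24.8% of all genes tested. The median log2 fold change of the 47 genes was then -0.13. In whole kidneys, fewer dividing cells and less RNA per dividing cell cannot be told apart. Of the proliferation markers, all 5 of 5 (Mki67, Top2a, Ccnb1, Birc5 and Cdk1) were lower by at least 2-fold (median log2 fold change -1.45), and their summed level was 1899 to 2180 normalized counts in control kidneys and 519 to 661 in FeD kidneys.

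**Figure D1:**
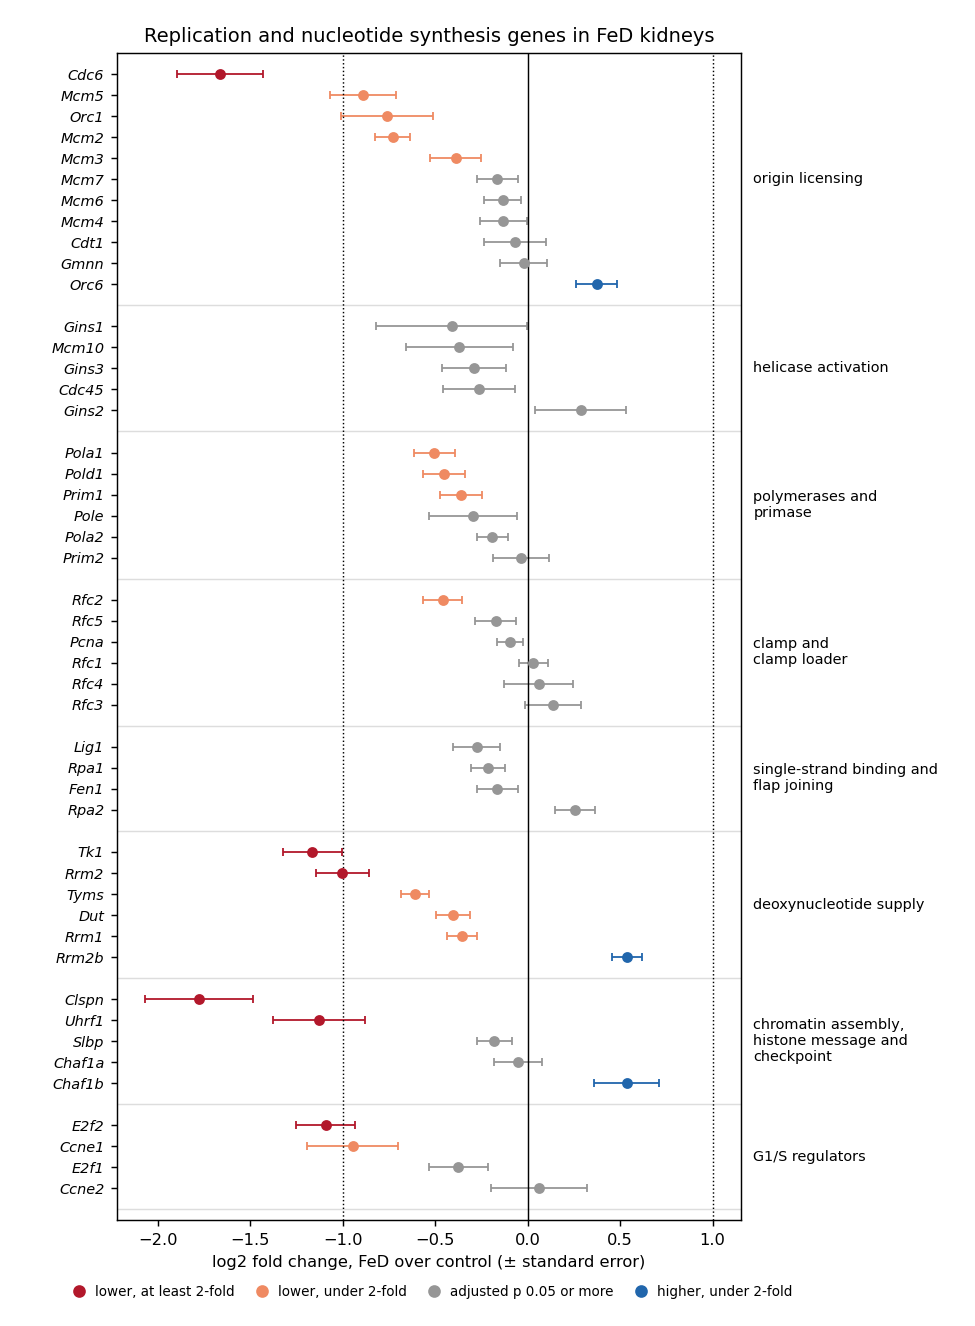
Log2 fold change of each of the 47 genes, FeD over control (horizontal axis), with genes grouped by role. Points are edgeR estimates from 3 kidneys per group, bars are standard errors, dotted lines mark a 2-fold change, and colours give the call. The 6 dark red genes lie at or beyond the dotted line on the left, and the 3 blue genes lie right of 0 but short of a 2-fold change.

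Because many S phase genes are known targets of E2F transcription factors, promoter sequences of the group were read, whatever the gene's call. RefSeq promoters (GRCm38.p6, 250 bases before to 50 bases after the start) were given for 38 of the 47 genes, of which 5 had more than 1, and a gene was counted if any of its promoters held the word. Both strands were searched for 4 forms of the E2F motif, TTTCCCGC, TTTGGCGC, TTTCGCGC and TTTGCCGC. An E2F word was found for 15 of the 38 genes (39.5%), compared with 4.35% of the 11463 tested genes with a promoter and 2.6% of all 27025 genes with a promoter. The words were in 9 of 17 genes that fell (52.9%), in 6 of 19 that did not pass the test (31.6%) and in 0 of 2 that rose. The sequence CCAAT, on either strand, was in 24 of the 38 genes (63.2%) and in 42% of tested genes, and the word TTTGAA of the cell cycle homology region was in 5 (13.2%) and in 14.5% of tested genes. A match is a description of the sequence and shows neither a bound site nor a cause.

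The stretches below lie outside annotated exons and are written 5′ to 3′ on the strand of the gene, each with the matched word, or its reverse complement, in capitals. They are given in coordinates of NCBIM37 (mm9), the build of the counts, in which each was found at 1 place. Cdc6 (chr11:98769303-98769358, plus strand), Mcm5 (chr8:77633231-77633290, plus strand), Pola1 (chrX:90877601-90877656, minus strand) and Uhrf1 (chr17:56443527-56443582, plus strand, at the second of its RefSeq starts) are shown as genes that fell. Mcm6 (chr1:130256357-130256416, minus strand) and Gins3 (chr8:98157394-98157449, plus strand) are shown because they hold the same kind of word and did not pass the test. Rrm2 (chr12:25393045-25393097, plus strand) is shown for its CCAAT box, since none of the 4 E2F words was in its window. In Mcm5 and Mcm6 the capitals cover a pair of words that overlap on opposite strands.
Cdc6: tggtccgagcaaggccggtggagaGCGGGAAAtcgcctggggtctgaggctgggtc
Mcm5: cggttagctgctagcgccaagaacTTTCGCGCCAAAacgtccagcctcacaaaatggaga
Pola1: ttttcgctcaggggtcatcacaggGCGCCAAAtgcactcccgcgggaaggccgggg
Uhrf1: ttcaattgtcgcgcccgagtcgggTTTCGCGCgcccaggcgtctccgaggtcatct
Mcm6: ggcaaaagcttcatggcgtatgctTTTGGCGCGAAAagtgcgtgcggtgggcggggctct
Gins3: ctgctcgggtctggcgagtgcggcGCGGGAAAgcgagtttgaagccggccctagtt
Rrm2: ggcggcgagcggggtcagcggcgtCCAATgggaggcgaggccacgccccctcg

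Counts by role are small and are read beside the 23.3% of all tested genes that fell and the 22.4% that rose. Among the 11 genes of origin licensing, 5 fell, 1 rose and 5 did not pass the test (median log2 fold change -0.16). Cdc6 (chr11:98769115-98785254 in mm9, plus strand), the ATPase that brings the MCM ring to the origin, had the largest fall of these genes, and its promoter stretch is printed above. It had 60.4, 52.0 and 54.3 normalized counts in the control kidneys and 20.0, 16.9 and 15.6 in the FeD kidneys. The highest FeD kidney was far below the lowest control kidney. The change was 3.17-fold (log2 fold change -1.66 ± 0.23, adjusted P = 0.00081), and Cdc6 stayed below a log2 fold change of -1 in all 13 alternative fits.

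The MCM ring is built of 6 subunits that are present once each, and 3 of the 6 genes passed the test. Mcm5 (chr8:77633427-77652338, plus strand) had 336, 353 and 340.2 normalized counts in control kidneys and 207, 219 and 132 in FeD kidneys, with FeD kidney 3 the lowest. The groups did not overlap, and the log2 fold change was -0.89 ± 0.18 (adjusted P = 0.0045). For Mcm2 (chr6:88833469-88848774, minus strand) the values were 498, 448 and 512 in control and 294, 311 and 275 in FeD kidneys (log2 fold change -0.73, adjusted P = 0.00055). Mcm2 was the most even of these genes among FeD kidneys and again did not overlap with control. Mcm3 (chr1:20793055-20810359, minus strand) had 325, 313 and 313 in control and 263, 271 and 194 in FeD kidneys, a smaller fall (log2 fold change -0.39, adjusted P = 0.046). Its call was lost when any kidney other than FeD kidney 2 was left out, with adjusted P between 0.0559 and 0.121.

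Mcm4, Mcm6 and Mcm7 did not pass the test, with log2 fold changes of -0.13, -0.14 and -0.16. Mcm6 illustrates the overlap, with 1005, 1021 and 992 normalized counts in control kidneys and 959.6, 1009.6 and 781 in FeD kidneys. FeD kidney 2 lay inside the control range, and FeD kidney 3 lay well below it. The exons of Mcm7 share 8.70% of their length with Ap4m1 and Cops6 on the opposite strand, so some of its reads could belong to those genes.

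Levels of the 6 subunits were compared per length, as RPKM, the read count scaled to the kilobases of all annotated exons of a gene and to the size of the library. Mcm6 was the highest subunit in every kidney. Mcm5 was the lowest in all 3 FeD kidneys and in control kidneys 2 and 3, and Mcm4 was the lowest in control kidney 1. The ratio of the highest to the lowest subunit was 2.48, 2.32 and 2.34 in control kidneys and 3.71, 3.69 and 4.73 in FeD kidneys. The spread between subunits was thus wider in every FeD kidney than in any control kidney. In the FeD kidneys it was set by Mcm5, whose fall is given above, so it is no further test.

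**Figure D2:**
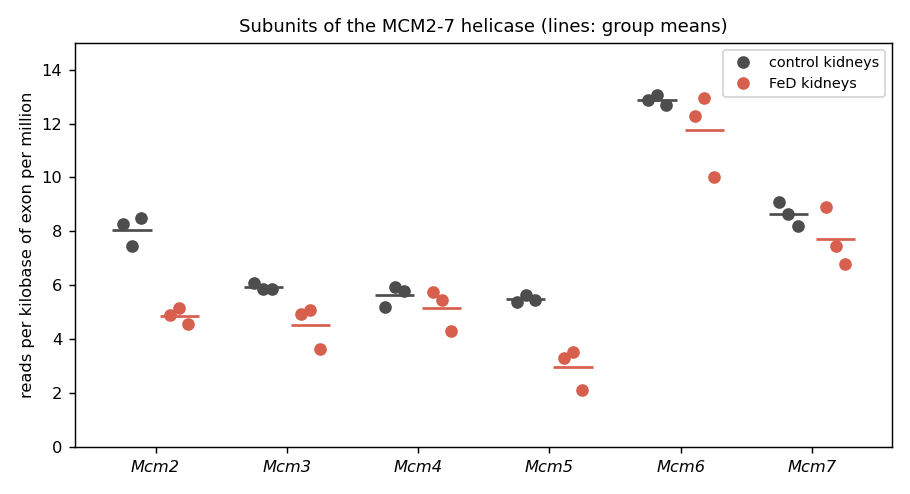
RPKM (vertical axis) of the 6 subunits of the MCM helicase (horizontal axis) in 3 control kidneys (grey) and 3 FeD kidneys (red), where each point is a kidney and each line a group mean. Mcm2, Mcm3 and Mcm5 separate by group, whereas Mcm4, Mcm6 and Mcm7 overlap.

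Orc1 and Orc6 encode subunits of the origin recognition complex, and Orc1 fell while Orc6 rose. Orc1 (chr4:108252028-108288633, plus strand) was among the lowest genes of the group, with 36.4, 28.8 and 38.3 normalized counts in control kidneys and 22.0, 18.2 and 20.7 in FeD kidneys. Its log2 fold change was -0.76 ± 0.25 (adjusted P = 0.036), and the call was lost without any 1 of the 6 kidneys (adjusted P between 0.056 and 0.127). Orc6 (chr8:87823531-87832177, plus strand) had 227, 229 and 219 in control kidneys and 328, 276 and 269.6 in FeD kidneys, a rise of 1.29-fold (log2 fold change 0.37, adjusted P = 0.025). No FeD kidney fell within the narrow control range, but the call was lost without control kidney 1, 2 or 3 or FeD kidney 1 (adjusted P between 0.0579 and 0.0881).

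Cdt1, which loads the helicase together with Cdc6, and Gmnn, the inhibitor that holds Cdt1 in check, did not pass the test. Cdt1 had 184, 156 and 189 normalized counts in control kidneys and 202, 169 and 136 in FeD kidneys (log2 fold change -0.07 ± 0.17). Gmnn had 246, 252 and 290.3 in control kidneys and 284, 269.9 and 225 in FeD kidneys, the smallest change of all 47 genes (log2 fold change -0.02 ± 0.13). For both genes FeD kidney 1 was above 2 of the 3 controls or more and FeD kidney 3 was below all of them.

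None of the 5 genes of helicase activation passed edgeR's test, at an adjusted or an unadjusted P under 0.05, and none was called by DESeq2. Their log2 fold changes were -0.41 for Gins1, -0.37 for Mcm10, -0.29 for Gins3, -0.26 for Cdc45 and 0.29 for Gins2. These are genes of low counts with wide errors, and Gins1 (standard error 0.41) shows the spread. It had 44.1, 33.2 and 33.8 normalized counts in control kidneys and 44.0, 27.3 and 13.0 in FeD kidneys. FeD kidney 1 matched the highest control while FeD kidney 3 was the lowest of all. Gins3 was the only gene of these with FeD kidneys (88.1, 67.5 and 71.7) below every control kidney (99.7, 90.8 and 88.2). For Gins2, 67.3% of the exon length lies opposite Gse1, so reads of the 2 genes could be mixed.

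Of the 6 polymerase and primase genes 3 fell and 3 did not pass the test (median log2 fold change -0.33). Pola1 (chrX:90550106-90877494, minus strand), the catalytic subunit of the polymerase that extends RNA primers, had 191, 203 and 196 normalized counts in control kidneys and 135, 135 and 144 in FeD kidneys. The 3 FeD kidneys lay close together and well below control (log2 fold change -0.51 ± 0.11, adjusted P = 0.007). Pold1 (chr7:51788116-51804219, minus strand), the catalytic subunit of the lagging strand polymerase, had 348, 319 and 324 in control and 275, 224 and 225 in FeD kidneys (log2 fold change -0.45, adjusted P = 0.012). The call for Pold1 was lost without control kidney 1 (adjusted P = 0.0517). Pole, the catalytic subunit of the leading strand polymerase, had 185, 174 and 171 in control kidneys and 156, 188 and 90.7 in FeD kidneys, where FeD kidney 2 exceeded every control (log2 fold change -0.30 ± 0.24). Pola2, the second subunit of polymerase alpha, had a log2 fold change of -0.19 ± 0.08 (adjusted P = 0.097), although its FeD kidneys (358, 323 and 367) were all below control (397, 401 and 402).

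Both subunits of primase were measured. Prim1, the subunit that makes the RNA primer, had 213, 210.4 and 189.7 normalized counts in control kidneys and 149, 161 and 167 in FeD kidneys (log2 fold change -0.36, adjusted P = 0.033). Its call did not hold without control kidney 1, 2 or 3 or FeD kidney 1 or 2 (adjusted P between 0.0578 and 0.116). Prim2, the large subunit, had 110.2, 96.3 and 112 in control kidneys and 95.1, 114 and 103 in FeD kidneys, which overlapped throughout (log2 fold change -0.03 ± 0.15). Per length, Prim1 had a mean of 2.96 RPKM in control and 2.30 in FeD kidneys, and Prim2 2.74 and 2.68. Whether the subunits differed in their change was not tested.

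Of the 6 clamp and clamp loader genes 1, Rfc2, fell and 5 did not pass the test. Pcna, the sliding clamp, had 1100.5, 1180.2 and 1176 normalized counts in control kidneys and 1065, 1016 and 1152 in FeD kidneys. FeD kidney 3 lay inside the control range, and the log2 fold change was -0.10 ± 0.07 (adjusted P = 0.31). Rfc2 (chr5:135058560-135074198, plus strand), a small subunit of the clamp loader, had 752, 795 and 730.2 in control kidneys and 600.4, 587 and 469 in FeD kidneys without overlap (log2 fold change -0.46, adjusted P = 0.009). Rfc2 and Pcna were the most abundant of the 47 genes per length, with control means of 27.96 and 26.8 RPKM, and Orc1 the least, with 0.413 RPKM.

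The other 4 loader subunits had small estimates that did not pass the test. Rfc1, the large subunit, had 913, 833 and 809 normalized counts in control kidneys and 820.5, 889 and 899 in FeD kidneys (log2 fold change 0.03 ± 0.08). Rfc4 had 102, 106 and 81.0 in control kidneys and 113, 105 and 82.9 in FeD kidneys (log2 fold change 0.06 ± 0.19). In both genes the values of the groups were interleaved. Rfc3 and Rfc5 had log2 fold changes of 0.14 and -0.17. Exons of Rfc4 and Rfc5 overlap genes of the opposite strand over 12.6% and 10.7% of their length.

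None of the 4 genes that bind single strands or process and join Okazaki fragments passed the adjusted threshold in edgeR, none was called by DESeq2, and 2 had an unadjusted P under 0.05. Rpa1, the large subunit of the single-strand binding protein, had 1177, 1154 and 1119 normalized counts in control kidneys and 1005, 1102 and 870.0 in FeD kidneys (log2 fold change -0.21, adjusted P = 0.088). Rpa2, its middle subunit, lay in the opposite direction, with 279.9, 297 and 286 in control kidneys and 376, 353 and 302 in FeD kidneys (log2 fold change 0.26, adjusted P = 0.082). Neither overlapped between groups, and each passed the test when 1 kidney was left out, Rpa1 without FeD kidney 2 (adjusted P = 0.0297) and Rpa2 without FeD kidney 3 (adjusted P = 0.0109). Lig1, the ligase that seals the fragments, had a log2 fold change of -0.28 (adjusted P = 0.11). Fen1, the flap nuclease, had one of -0.16, but 84.2% of its exon length lies opposite other annotated genes and its value may hold their reads.

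Deoxynucleotide supply was the role in which every gene passed the test. Of the 6 genes 5 fell, 2 of them by at least 2-fold, and 1 rose (all tested genes: 23.3%, 5.69% and 22.4%). Tk1 (chr11:117676840-117687406, minus strand), the cytosolic kinase that salvages thymidine, had 270.3, 291 and 325 normalized counts in control kidneys and 158, 131 and 107 in FeD kidneys. All FeD kidneys were well below control, a 2.24-fold difference (log2 fold change -1.16 ± 0.16, adjusted P = 0.00076). Tyms (chr5:30384742-30400157, minus strand), which makes thymidylate from deoxyuridylate, had 662, 705 and 654 in control kidneys and 446, 442 and 436 in FeD kidneys. Its FeD kidneys were nearly equal, and its adjusted P was the smallest of the 47 genes (log2 fold change -0.61 ± 0.07, adjusted P = 0.00046). Dut (chr2:125072926-125084344, plus strand), which breaks down dUTP and so keeps uracil out of DNA, had 446, 476 and 521 in control kidneys and 390.2, 356 and 345 in FeD kidneys (log2 fold change -0.40, adjusted P = 0.0089).

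Ribonucleotide reductase pairs the large subunit Rrm1 with a small iron-bearing subunit, either Rrm2, which is made for S phase, or Rrm2b, which is known as a p53 target that serves cells outside S phase. Rrm1 (chr7:109590209-109618285, plus strand) had 554, 597 and 614 normalized counts in control kidneys and 478, 439 and 462 in FeD kidneys (log2 fold change -0.35 ± 0.08, adjusted P = 0.0078). Rrm2 (chr12:25393106-25399011, plus strand), whose CCAAT box is printed above, had 478, 556 and 622 in control kidneys and 311, 291 and 226 in FeD kidneys. The groups did not overlap, and the fall was 2.00-fold (log2 fold change -1.003 ± 0.14, adjusted P = 0.00097). Rrm2 sat at the 2-fold threshold, and its log2 fold change was -0.91 without control kidney 3 and -0.86 without FeD kidney 3, still below control at an adjusted P under 0.05. Rrm2b (chr15:37853707-37891073, minus strand) rose, from 525, 500.4 and 511 in control kidneys to 697, 744 and 789 in FeD kidneys. Every FeD kidney was above the narrow control range (log2 fold change 0.54 ± 0.08, adjusted P = 0.0011), and the rise passed the test in all 13 alternative fits.

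The balance of the small subunits was read within each library, where no scaling between libraries enters. The ratio of Rrm2b to Rrm2 counts was 1.10, 0.900 and 0.822 in control kidneys and 2.24, 2.56 and 3.48 in FeD kidneys. The ratio was higher in 3 of 3 FeD kidneys than in any control kidney, by 2.91-fold (log2 difference 1.54, exact two-sided permutation P = 0.1, the smallest value that 3 against 3 kidneys allow). Since every FeD kidney was below control for Rrm2 and above it for Rrm2b, this separation was already fixed and is no further test. The ratio of Rrm1 to Rrm2 counts was 1.16, 1.07 and 0.987 in control kidneys and 1.54, 1.51 and 2.04 in FeD kidneys (1.57-fold, exact two-sided permutation P = 0.1). Per length, Rrm2b made up 32.1%, 27.9% and 26.1% of the summed small subunit RPKM in control kidneys and 49.1%, 52.4% and 60.0% in FeD kidneys. Rrm2b was thus below Rrm2 per length in every control kidney and above it in FeD kidneys 2 and 3, an order that depends on the exon lengths used.

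**Figure D3:**
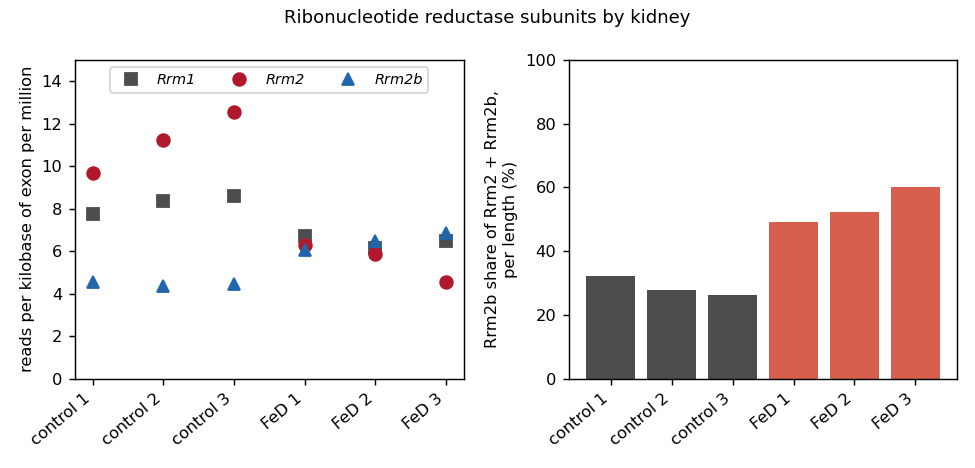
Left, RPKM (vertical axis) of Rrm1 (squares), Rrm2 (circles) and Rrm2b (triangles) in each of the 6 kidneys (horizontal axis). Right, Rrm2b as a percentage of the summed RPKM of Rrm2 and Rrm2b in each kidney (control grey, FeD red). Rrm2 falls and Rrm2b rises between the groups, and the share goes from 26.1% to 32.1% in control kidneys to 49.1% to 60.0% in FeD kidneys.

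Besides Rrm2 and Rrm2b, other proteins of the group are described as iron proteins, since Prim2 and the catalytic polymerase subunits encoded by Pola1, Pold1 and Pole bind an iron-sulfur cluster. Of these 6 genes, grouped after their values were seen, 3 fell (Rrm2, Pola1 and Pold1), 1 rose (Rrm2b) and 2 did not pass the test (Pole and Prim2), beside 23.3% lower and 22.4% higher among all tested genes. Of 10 iron-binding genes that mostly act on DNA outside the 47, 2 fell (Ddx11, log2 fold change -0.66, and Rtel1, -0.25), 1 rose (Rev3l, 0.66) and 7 did not pass the test, shares no higher than those of all tested genes. Their median log2 fold change was -0.15.

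Chromatin, histone message and checkpoint genes held the largest change of all. Clspn (chr4:126234179-126271147, plus strand), which encodes the adaptor that passes the signal of a stalled fork to the checkpoint kinase, had 64.2, 98.5 and 111 normalized counts in control kidneys and 35.0, 22.1 and 22.5 in FeD kidneys. Every FeD kidney was below every control, although control kidney 1 was well below the other controls. The difference was 3.42-fold (log2 fold change -1.78 ± 0.29, adjusted P = 0.0018). Uhrf1 (chr17:56442744-56462909, plus strand), which brings the maintenance methyltransferase to newly copied DNA, had 432, 304 and 337 in control kidneys and 220.1, 166 and 107 in FeD kidneys. It varied within both groups without overlap, and its log2 fold change was -1.13 ± 0.25 (adjusted P = 0.0068). The log2 fold change of Uhrf1 was -0.97 without control kidney 1 and -0.87 without FeD kidney 3, short of 2-fold.

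The subunits of the chromatin assembly factor that places histones on new DNA were Chaf1a and Chaf1b. Chaf1b (chr16:93884146-93906360, plus strand) rose, with 116, 127 and 117 normalized counts in control kidneys and 188, 201 and 134 in FeD kidneys (log2 fold change 0.53 ± 0.17, adjusted P = 0.035). FeD kidney 3 was only just above the controls, and the call was lost without any kidney other than FeD kidney 3 (adjusted P between 0.0774 and 0.11). Chaf1a had 196, 165 and 191 in control kidneys and 184, 192 and 158 in FeD kidneys, with overlap (log2 fold change -0.05 ± 0.13). Slbp, which binds the stem-loop of histone messages, had a log2 fold change of -0.18 and did not pass the test (adjusted P = 0.15).

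Among the 4 regulators of the G1/S step 2 fell. E2f2 (chr4:135728309-135751972, plus strand), an activating member of the E2F family, had 189.8, 204 and 189 normalized counts in control kidneys and 80.0, 80.5 and 111 in FeD kidneys. FeD kidney 3 was the highest of its group here, in contrast to most of the 47 genes, and it was still far below control (log2 fold change -1.09 ± 0.16, adjusted P = 0.0011). The value moved to -0.99 without FeD kidney 1 and to -0.998 without FeD kidney 2. E2f1, the related activator, had 185, 149 and 186 in control kidneys and 145, 147 and 111 in FeD kidneys (log2 fold change -0.38, adjusted P = 0.088) and did not pass the test, although its groups did not overlap.

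Cyclin E, which drives cells into S phase with its kinase Cdk2, is encoded by Ccne1 and Ccne2. Ccne1 (chr7:38883003-38892553, minus strand) had 39.3, 35.4 and 37.4 normalized counts in control kidneys and 17.0, 23.4 and 18.1 in FeD kidneys (log2 fold change -0.95 ± 0.25, adjusted P = 0.014). Its FeD kidneys were all below control, and the call was lost without control kidney 3 (adjusted P = 0.0508) or FeD kidney 1 (adjusted P = 0.0511). Ccne2 had 26.8, 27.7 and 31.2 in control kidneys and 24.01, 37.6 and 28.5 in FeD kidneys, which overlapped (log2 fold change 0.06 ± 0.26). Of the exon length of Ccne2, 17.4% lies opposite Ints8, so some of its reads could belong to that gene. A difference in response between Ccne1 and Ccne2, or between E2f1 and E2f2, was not tested.

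**Figure D4:**
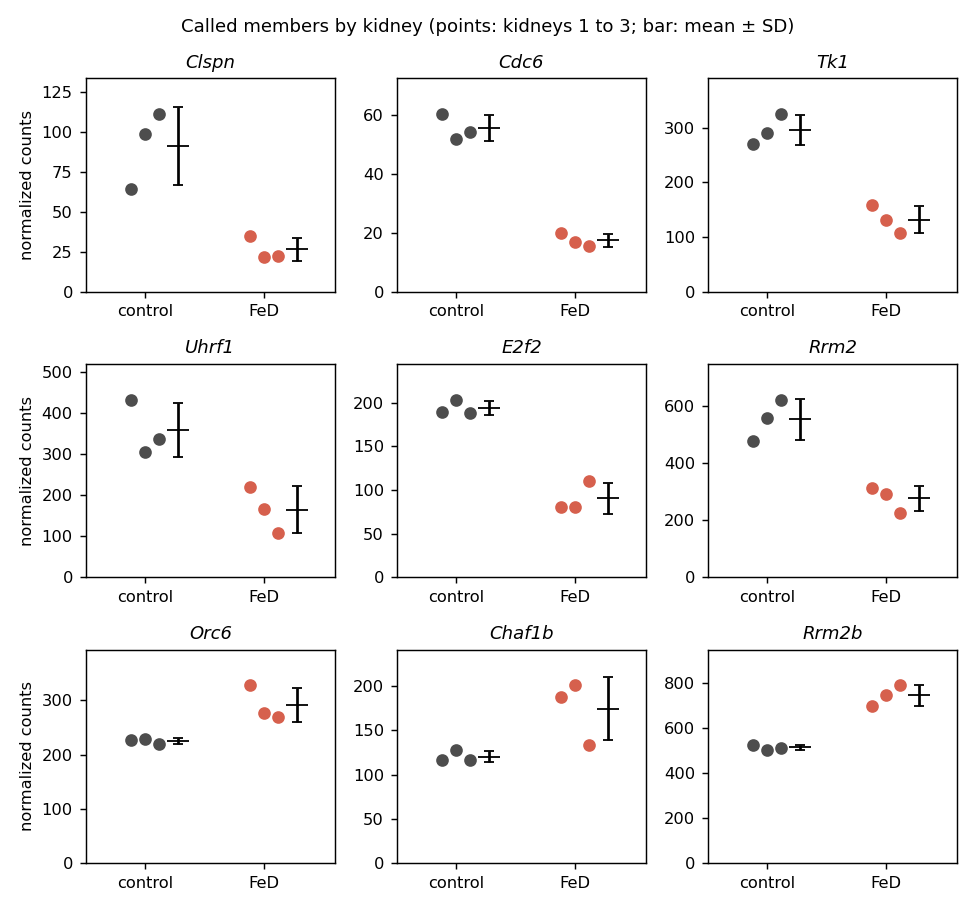
Normalized counts (vertical axis, from 0) of the 6 genes lower by at least 2-fold (top and middle rows) and the 3 genes that rose (bottom row) in 3 control and 3 FeD kidneys (horizontal axis). Points are kidneys, and bars are the mean ± SD of each group. The groups do not overlap in any panel, and the smallest gap is that between FeD kidney 3 and the highest control for Chaf1b.

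Other genes of the same pathways, listed outside the 47, were mixed in direction. Of 33 other replication genes 5 fell, 5 rose and 23 did not pass the test, shares below the 23.3% and 22.4% of all tested genes (median log2 fold change -0.03). Exo1, a nuclease of mismatch repair and end resection, was the only 1 of these to fall by at least 2-fold. It had 50.8, 29.9 and 28.5 normalized counts in control kidneys and 20.0, 14.3 and 8.64 in FeD kidneys (log2 fold change -1.35, adjusted P = 0.022). The 5 that rose were Orc2 (0.40), Orc5 (0.28), Pold4 (0.50), Topbp1 (0.44) and Atad5 (0.58), values in parentheses being log2 fold changes, and were named after their values were seen. With Orc6, 3 genes of the origin recognition complex thus rose while Orc1 fell, and Orc3 and Orc4 did not pass the test. The summed level of these 33 genes was 12573 to 13226 normalized counts in control kidneys and 12908 to 13190.1 in FeD kidneys.

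Of 30 other nucleotide synthesis genes 11 fell, 3 rose and 16 did not pass the test, beside 23.3% lower and 22.4% higher among all tested genes. Log2 fold changes in this list ran from -0.86 to 0.46 around a median of -0.15. The members of this list that fell included genes of folate metabolism, pyrimidine synthesis and purine synthesis. Shmt2, which makes mitochondrial one-carbon units, had 2649, 2683 and 3094 normalized counts in control kidneys and 1544, 1377 and 1705 in FeD kidneys (log2 fold change -0.86, adjusted P = 0.00028). Cad, which carries out the first steps of pyrimidine synthesis, had 573, 599 and 582 in control kidneys and 406, 341 and 357 in FeD kidneys (log2 fold change -0.67, adjusted P = 0.00069). Mthfd1 (-0.58) and Adsl (-0.64) also fell, whereas Impdh2 (0.37) and Adss (0.46) rose, values in parentheses being log2 fold changes. Shmt2, Cad, Mthfd1, Adsl, Impdh2 and Adss were picked out after their values were seen.

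Among 28 tested genes of 29 other G1/S regulators 7 fell, 8 rose and 13 did not pass the test (median log2 fold change -0.08), shares near the 23.3% and 22.4% of all tested genes. The remaining gene, Cdkn2a, was near or below the floor and was not tested. Those lower by at least 2-fold were E2f8 (-2.14), a repressor of the E2F family, Ccna2 (-1.80), the cyclin of S and G2 phases, and Cdkn2c (-1.67), an inhibitor of Cdk4 and Cdk6, values in parentheses being log2 fold changes. Cdkn1a, the kinase inhibitor p21, was the only 1 to rise by at least 2-fold (log2 fold change 2.84, adjusted P = 8.9e-06).

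Markers of other cells in the kidney also differed between the groups. The 4 genes listed as markers of nephron progenitors had a summed level of 412 to 472 normalized counts in control and 238 to 343 in FeD kidneys. Most of this sum was Meox1, with a mean of 327 in control and 164 in FeD kidneys. Meox1 fell, Eya1 rose, Cited1 did not pass the test, and Six2 lay near the floor in both groups and was not tested. The sum is therefore not read as an amount of progenitor cells. The 6 erythroid markers summed to 2565 to 3636 in control and 833 to 1565 in FeD kidneys, with Slc4a1 and Klf1 lower of 4 tested. Hbb-b1 and Hba-a1 were at 0 in all kidneys, although Alas2 had 92.4 to 762 normalized counts. Whether the discarding of reads mapped to more than 1 place produced these 0 counts was not tested. The 5 leukocyte markers summed to 1699 to 1750.4 in control and 1344 to 1509 in FeD kidneys, where Csf1r fell, Ptprc rose, Adgre1 did not pass the test, and Cd3e and Ms4a1, the latter at 0 in every FeD kidney, were not tested. For the 4 endothelial markers, of which 3 fell, the sums were 10108 to 10561 and 6645 to 8785. The 4 stromal markers, of which 3 rose and 1 fell, summed to 15072 to 16564 and 14116 to 20469. Among the 6 markers of tubules and podocytes, 2 fell (Lrp2 and Slc12a3) and 1 rose (Aqp2). The part of these markers and of the proliferation markers in the values of the 47 genes, whose own sum was 16034 to 16221 in control and 12618 to 14228 in FeD kidneys, was not tested.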

How the data were processed

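Kidney RNA of 3 control and 3 FeD pups was measured by RNA-seq. The authors selected polyadenylated RNA, trimmed reads with Trimmomatic, aligned them to mm9 with TopHat2 2.0.11, discarded reads mapped to more than 1 place and used HTSeq to count the rest per gene. Raw counts were deposited for each kidney, neither normalized nor pooled. The annotation, counting mode and strand setting are not given in the sources used here, so overlapping genes may share reads. Base calls came from CASAVA 1.8.2 per the submitters' processing notes. Diet group and kidney number came from the labels. The labels do not say whether pups came from separate litters, so P values measure the spread between these kidneys.

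Counts were fitted with edgeR 4.0.16 in R 4.3.3 (filterByExpr, TMM, glmQLFit and glmQLFTest) over all 15145 tested genes, with Benjamini-Hochberg adjustment and diet as the only term. A gene fell or rose at an adjusted P under 0.05, and a second count asked for a 2-fold change as well. Standard errors of log2 fold changes were derived from the F statistic, as the estimate over the root of F. RPKM used the merged length of all exons of a gene in the GENCODE annotation of NCBIM37 (mm9), in which all 47 genes matched. RPKM compared between genes depends on this length, which can differ from that of the expressed transcript. Promoters came from RefSeq. The floor covers counting error only, since reads carry no molecular identifiers. The fit was tested on simulated counts of 15287 genes for FeD against control, with the same dispersion for every gene. There 200 of 200 changed genes were recovered with 0 false calls at a median absolute log2 fold change of 1.96. Genes of low counts were not among the changed genes, and only calls past 2-fold were counted. Smaller changes, low counts and false calls short of 2-fold were therefore not covered.

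The 47 genes, the other lists and the tests were chosen with earlier results of these data known. A few genes of the other lists and marker lists are not reported here and were left out of the counts and sums. Values per kidney were required for genes past 2-fold, the ribonucleotide reductase genes and the 5 largest and 5 smallest changes, and other lists were to name genes past 2-fold, while further values and names were added after they were seen. Alternatives were DESeq2 1.42.0, its size factors or library size alone, no filter or at least 10 counts per kidney, a test against 2-fold, the kidney number as a block, globin and mitochondrial genes left out, and each kidney left out in turn.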

Additional observations from a re-analysis of the deposited data

How the results depend on the processing

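Of the 21 genes called at any fold, 14 kept the call in all 13 alternative fits, and none changed direction. Clspn, Cdc6 and Tk1 also stayed past 2-fold in all of these fits. The fit without globin and mitochondrial genes tested the same 15145 genes and repeated the main fit's values, so it could not change a call. The 7 that lost the call in at least 1 fit were Orc1, Orc6, Mcm3, Prim1, Pold1, Chaf1b and Ccne1. The genes lower by at least 2-fold numbered 5 by DESeq2, with DESeq2's size factors and with at least 10 counts per kidney, and 4 to 7 with 1 kidney left out. The shares of all tested genes were 5.09%, 5.63% and 4.38% in that order, and 5.28% to 6.16% with 1 kidney left out. In edgeR's test against a 2-fold change 0 genes were called, 2 at an unadjusted P under 0.05, a test of whether the change itself exceeds 2-fold. Genes of the 47 lower at any fold numbered 14 by DESeq2, where Orc1, Mcm3, Prim1 and Ccne1 were lost, and 14 to 17 with 1 kidney left out. The shares of all tested genes were 19.3% by DESeq2 and 17.0% to 24.8% with 1 kidney left out. Genes of the 47 higher at any fold numbered 1 to 4 with 1 kidney left out, and 1 without control kidney 1, 2 or 3 or FeD kidney 1, fits with fewer samples. The share of all tested genes was 15.6% to 25.6% with 1 kidney left out. The median log2 fold change ranged from -0.31 to -0.13, the last without FeD kidney 3, and the log2 difference of the Rrm2b to Rrm2 ratio from 1.36 to 1.68.

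The replicate block gave 6 genes lower by at least 2-fold, 16 lower at any fold and 3 higher, losing Orc1 and Prim1. The shares of all tested genes in that fit were 5.80%, 22.1% and 20.5%. Kidneys with the same number are different pups of differently fed dams, and their deviations from the group means correlated at -0.16, 9.6e-05 and -0.035, so the numbers do not pair them. Signs changed for 8 uncalled genes when 1 kidney was left out, with ranges of -0.20 to 0.087 for Cdt1, -0.077 to 0.087 for Gmnn, -0.20 to 0.00066 for Mcm4, -0.10 to 0.043 for Prim2, -0.0078 to 0.087 for Rfc1, -0.055 to 0.20 for Rfc4, -0.13 to 0.041 for Chaf1a and -0.10 to 0.22 for Ccne2. The cause was not tested. Precision is limited by 3 kidneys per group and, for genes such as Orc1 and Gins1, by low counts.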
